A study of Mus musculus with 10 samples.

Results

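Peroxisome biogenesis and peroxisomal oxidation were followed through 34 genes, chosen by name, in the livers of 10 female mice. The set comprised 13 peroxin genes, which encode the proteins that build, fill and divide peroxisomes, and 21 genes of peroxisomal enzymes and ATP-binding cassette (ABC) transporters. All 34 were found among the 19414 genes of the deposited table, and all 34 passed the filter of a mean of at least 1 CPM (counts scaled to the same total of reads on the listed genes in each library), which left 13157 genes to test. Of the animals, 5 received a standard diet (SD) and 5 the Longevity diet (LD), which the title of the series describes as supplemented with methionine, for 5 months. Every mouse was of the HET3 stock, a cross of inbred strains in which each animal is genetically distinct, and the stated age was 25 months, without settling whether that was at the start or the end of feeding. The liver piece was sequenced in bulk from poly-A selected RNA, so that fewer cells of a type and less RNA per cell cannot be told apart.

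Peroxisomes are single-membrane organelles that are abundant in hepatocytes. They shorten very long, branched and dicarboxylic fatty acids, make bile acid precursors and ether lipids, and break down the hydrogen peroxide that their oxidases release. Their matrix proteins are made in the cytosol, recognised by the import receptors PEX5 and PEX7, and carried through a docking complex, while PEX3, PEX16 and PEX19 insert the membrane proteins. In rodent liver the nuclear receptor PPAR-alpha is known to raise the transcription of many of these genes in fasting and on exposure to fibrate drugs.

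Estimated depth was 42.5 ± 4.35 M reads (M, mega, 1000000 reads) per library on the standard diet and 29.95 ± 6.47 M reads on the Longevity diet (values after ± are standard deviations, n = 5 mice each), with a range of 24.7 to 45.7 M reads, and the lowest depth put 3 reads at 0.121 CPM. All 34 genes stood well above that floor, the lowest value being 3.78 CPM for Pex10. The summed CPM of 7 hepatocyte markers lay between 90091 and 137398 on the standard diet and between 139086 and 192684 on the Longevity diet. That sum was mostly Alb (79126 and 124794 CPM on average) and Apoa1 (15274 and 24108 CPM), neither of which passed. By gene, 4 of the 7 had a log2 difference above 0, beside 39.6% of all genes. Their median was 0.04, beside -0.11 for all genes. By limma 0 rose and 1 fell, beside 0.661% and 1.23% of all genes. Markers of sinusoidal endothelium (7 genes, 231 to 335 against 102 to 215 CPM) and of stellate cells and fibroblasts (8 genes, 278 to 447 against 160 to 260 CPM) stood lower on the Longevity diet without overlap. By gene, 7 of 7 and 8 of 8 had a log2 difference below 0. By limma 0 of the endothelial markers fell. Of the stellate cell and fibroblast markers 1 fell, Pdgfrb (log2 change -1.36, limma adjusted p = 0.0290). Sums overlapped for 6 cholangiocyte (27.2 to 59.3 against 27.5 to 47.8 CPM), 8 Kupffer cell (296 to 515.2 against 147 to 557 CPM), 8 T and NK cell (5.67 to 22.0 against 1.23 to 21.1 CPM), 6 B and plasma cell (21.3 to 97.1 against 8.32 to 31.0 CPM) and 7 neutrophil markers (2.95 to 121 against 0.809 to 3.00 CPM). By gene, 7 of 8 Kupffer cell markers tested had a log2 difference below 0, as did 5 of 6 for T and NK cells. So did 6 of 6 for B and plasma cells, 5 of 5 for neutrophils and 2 of 4 for cholangiocytes, beside 7952 of all 13157 genes. Of the markers in the lists with overlapping sums 1 fell, the neutrophil gene S100a8 (limma adjusted p = 0.0456). No marker in these lists was at 0 in all 10 mice. The 1 adipocyte marker found of 4 was at 0 to 1.40 against 0.666 to 6.81 CPM. The part of cell composition in the results below was not tested.

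LD_405 held the highest value of all 10 mice for 7 of the 34 genes and the lowest for 13. Other mice were also often at an end, with SD_502 highest for 10 genes and SD_501 lowest for 9. Across the 34 genes the deviation of LD_405 from the mean of the 10 mice had a Spearman's rho of -0.52 with transcript length. With the GC content of the transcript its rho was 0.63. Over 13001 tested genes with a known length the values were -0.53 and 0.48. SD_502 had the opposite relation to length, with a rho of 0.54 over the 34 genes and over all genes. Among the mice other than LD_405 the all-gene rho with length ran from -0.31 in LD_406 to 0.54 in SD_502. These are descriptions across genes, which are not independent replicates. For the 34 genes, values without LD_405 are given where a call changed, the log2 difference turned sign or it moved by over 1.5 times. For genes outside the set they are not given.

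**Figure D1:**
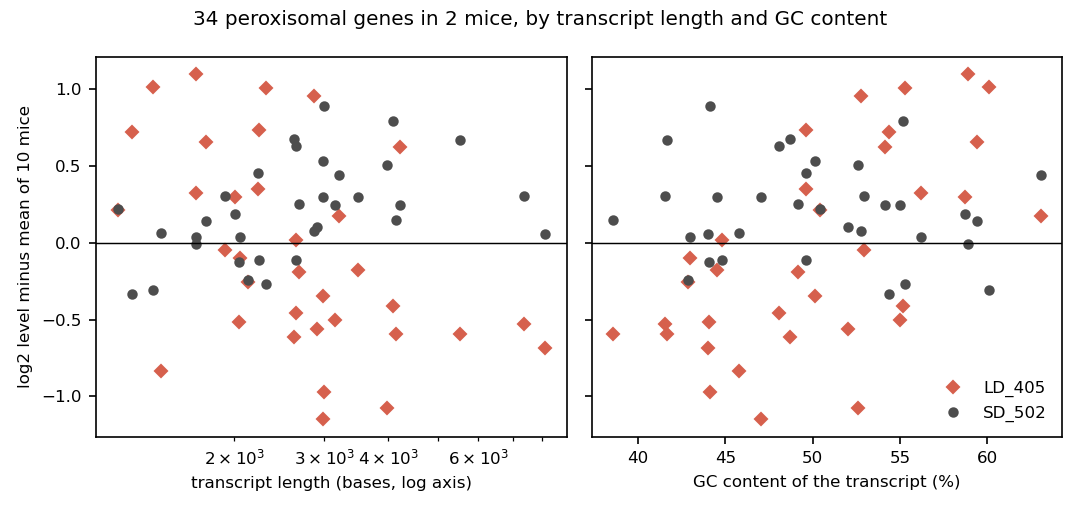
Deviation of each of the 34 genes from its mean over the 10 mice (y axis, log2 units) against transcript length (left, bases on a log axis) and GC content (right, %) in LD_405 and SD_502. In LD_405 short and GC-rich transcripts lie mostly above 0 and long ones mostly below, with a rho of -0.52 and 0.63 and with exceptions such as the short Phyh. SD_502 slopes upward with length, with a rho of 0.54.

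Against this background 3 of the 34 genes rose on the Longevity diet and 0 fell, by limma with adjusted p under 0.05 over all 13157 genes. The 3 that rose were the peroxisome division factor Pex11a, the auxiliary oxidation enzyme Ech1 and the carnitine acetyltransferase Crat, 1 from each of 3 roles. Over all genes tested 0.661% rose and 1.23% fell. At an unadjusted p under 0.05 there were 7 genes higher and 2 lower, beside 5.92% and 11.6% of all genes (17.5% in either direction). The 3 log2 changes stayed about as large, at 1.42 for Pex11a, 0.98 for Ech1 and 1.45 for Crat, but none passed when estimated depth, which differed between the diets, was added as a covariate (adjusted p = 0.194, 0.217 and 0.263). In that limma fit 0 of 13157 genes passed, and 1981 had an unadjusted p under 0.05, among them 7 of the set higher and 2 lower. Without LD_406 and LD_515, the mice with the lowest summed endothelial markers, the changes were 1.33, 0.87 and 1.46 (adjusted p = 0.10, 0.171 and 0.232). In that fit 2 of 13249 genes rose and 15 fell. For each of Pex11a, Ech1 and Crat every Longevity diet mouse lay above every standard diet mouse (2.01% of all genes), and no gene of the set lay wholly below (3.49% of all genes). The median log2 change of the 34 genes was 0.14, with 22 above 0 and 12 below, whereas the median of all genes tested was -0.11 and 39.6% lay above 0. Median-of-ratios scaling moved the median of all genes by 0.11 to -0.00037 and that of the set to 0.25, with the same count of 3 higher and 0 lower. Over all genes that scaling gave 154 higher and 133 lower, in place of 87 and 162.

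**Figure D2:**
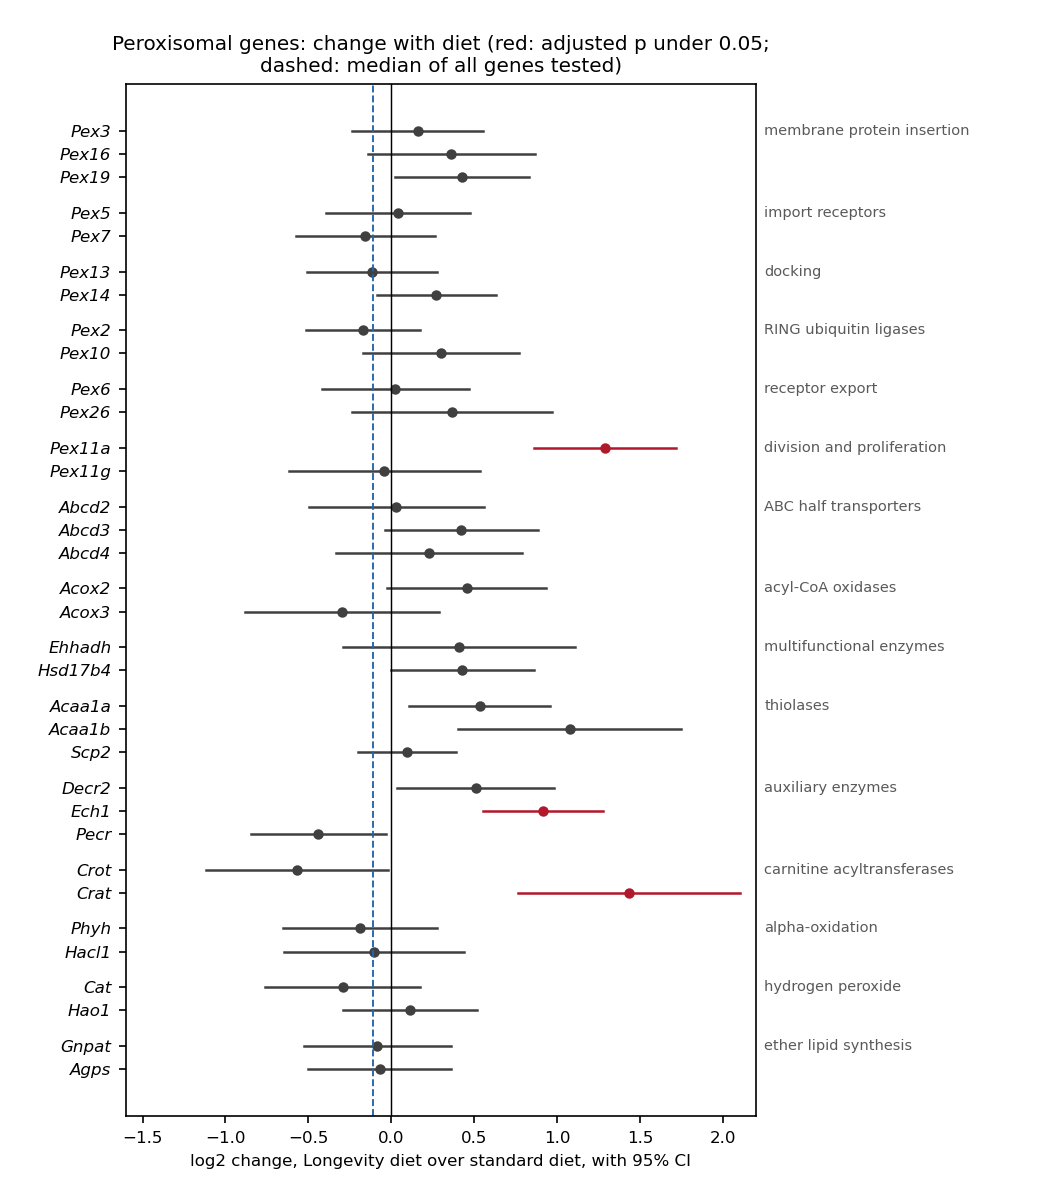
Log2 change on the Longevity diet over the standard diet for each of the 34 genes (points) with its 95% confidence interval (lines), grouped by role. Pex11a, Ech1 and Crat are drawn in red (adjusted p under 0.05), and most of the other intervals cross 0 (solid line) near the median of all genes at -0.11 (dashed line).

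Pex11a (ENSMUSG00000030545.10, chromosome 7 from 79385705 to 79392879 on mm39, minus strand) encodes a membrane protein that elongates peroxisomes before they divide. Its level was 66.7, 57.9, 41.3, 85.8 and 53.7 CPM in SD_403, SD_500, SD_501, SD_502 and SD_646, and 154, 160, 148, 144 and 122 CPM in LD_405, LD_406, LD_442, LD_513 and LD_515. The lowest mouse of the Longevity diet, LD_515, lay above the highest of the standard diet, SD_502. The mean went from 61.1 ± 16.6 to 146 ± 14.5 CPM (n = 5 each), a fitted 2.44-fold rise (log2 change 1.29, SE 0.20, 95% CI 0.86 to 1.72, adjusted p = 0.00759). Leaving out any single mouse kept the call, with log2 changes of 1.16 to 1.42.

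Ech1 (ENSMUSG00000053898.13, chromosome 7 from 28524642 to 28531672, plus strand) encodes a dienoyl-CoA isomerase that rearranges bonds of unsaturated fatty acids so that beta-oxidation can go on, and its product is found in mitochondria as well as peroxisomes. It stood at 271, 390, 286, 344 and 303 CPM in the same order of standard diet mice. On the Longevity diet it was 716, 691, 549, 492 and 563 CPM. The lowest of these, LD_513, exceeded the highest standard diet value, that of SD_500. Mean levels were 319 ± 48.3 and 602 ± 96.6 CPM, a fitted 1.89-fold rise (log2 change 0.92, SE 0.17, adjusted p = 0.0167). The call was lost without SD_403 (adjusted p = 0.0557) and without LD_406 (adjusted p = 0.0580). Without LD_405, its highest mouse, the log2 change was 0.85 (adjusted p = 0.0190).

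Crat (ENSMUSG00000026853.16, chromosome 2 from 30290483 to 30305825, minus strand) encodes carnitine acetyltransferase, which moves short acyl groups between coenzyme A and carnitine in peroxisomes and mitochondria. The standard diet mice had 57.2, 65.5, 33.3, 95.8 and 23.6 CPM and spread widely. The Longevity diet mice had 124, 129, 137, 143 and 131 CPM and lay close together. The mean rose from 55.1 ± 28.4 to 133 ± 7.35 CPM, with a fitted fold of 2.70 (log2 change 1.44, SE 0.31, 95% CI 0.77 to 2.10, adjusted p = 0.0341). Of the 3 calls this one was lost in the most alternative settings, 11 of 21. It was lost when any of SD_403, SD_500, SD_501, SD_646, LD_406, LD_442, LD_513 or LD_515 was left out (adjusted p = 0.0525 to 0.0889) and was kept without SD_502 and without LD_405. Crat overlaps 59 bases of Dolpp1 (mean 16.6 CPM) on the other strand, and Pex11a overlaps a non-coding gene at 0.337 CPM, so a few reads of each may be shared where counting ignored strand.

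**Figure D3:**
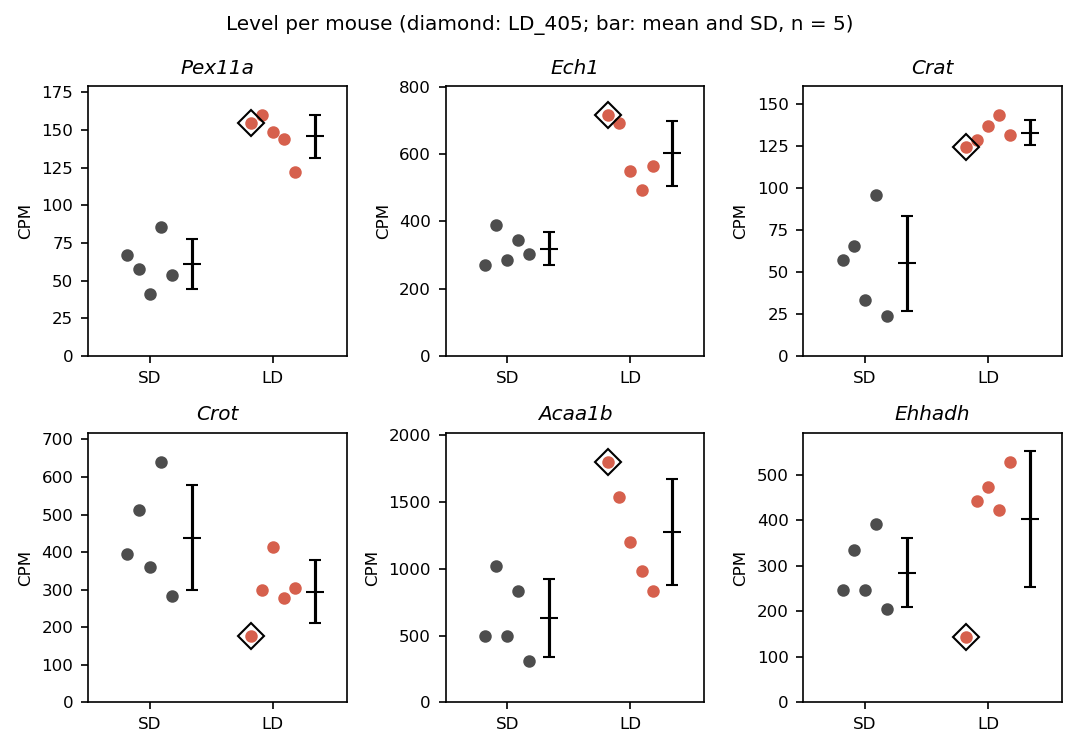
Level in CPM (y axis, from 0) of 6 genes in each mouse on the standard diet (SD) and the Longevity diet (LD), with the mean and SD of 5 mice beside the points and LD_405 marked by a diamond. Pex11a, Ech1 and Crat do not overlap between the diets, Crot and Acaa1b do, and Ehhadh is separated by diet in every mouse but LD_405.

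The upstream sequences of Pex11a and Ech1, which rose, are shown because a direct repeat is the textbook element bound by PPAR-alpha with its partner RXR. The repeat is AGGTCA, then 1 base of any kind (N), then AGGTCA. RefSeq promoters on GRCm38.p6, 300 bases from 250 before to 50 after the start, were matched for 28 of the 34 genes, with Pex11a and Ech1 among them. Crat, which also rose, was among the 6 genes without a matched promoter and was not searched. Each window was searched on both strands with up to 3 mismatches at the 12 fixed bases. The 250 upstream bases of Pex11a (chr7:79743132-79743381, minus strand), Ech1 (chr7:28825088-28825337, plus strand) and Cat (chr2:103485154-103485403, minus strand) follow 5′ to 3′, with the match in capitals. Cat, the gene of catalase, is printed as the match with the fewest mismatches before a start.
Pex11a: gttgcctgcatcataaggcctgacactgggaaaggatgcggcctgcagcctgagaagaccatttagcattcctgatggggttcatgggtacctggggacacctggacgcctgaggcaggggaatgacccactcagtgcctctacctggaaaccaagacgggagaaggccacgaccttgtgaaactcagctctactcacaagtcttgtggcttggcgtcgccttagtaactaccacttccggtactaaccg
Ech1: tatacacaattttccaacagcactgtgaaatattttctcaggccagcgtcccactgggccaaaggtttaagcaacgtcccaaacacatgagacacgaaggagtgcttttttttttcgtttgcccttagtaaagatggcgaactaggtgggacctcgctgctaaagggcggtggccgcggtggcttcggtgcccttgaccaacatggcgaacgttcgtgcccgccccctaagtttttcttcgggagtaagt
Cat: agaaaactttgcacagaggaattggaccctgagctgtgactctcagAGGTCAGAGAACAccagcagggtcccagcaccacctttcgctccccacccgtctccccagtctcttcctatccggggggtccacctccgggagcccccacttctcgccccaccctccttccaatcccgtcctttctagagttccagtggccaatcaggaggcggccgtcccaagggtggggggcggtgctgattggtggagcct
Of the 28 genes 4 held a match with up to 3 mismatches, namely Acox2, Cat, Pex11g and Phyh, where 27.3% of 27025 genes with a promoter did. With up to 2 mismatches Acox2 (AGGACAGAGGTGA, 9 bases after a start) and Cat (AGGTCAGAGAACA, 204 bases before the start) held one, beside 4.40% of all genes. The single letters AGGTCA, on either strand and in the 250 bases before a start, were found for Cat, Scp2 and Pex11g, 3 of 28 genes beside 15.8% of all genes. Neither gene with a printed sequence that rose had a match of either kind, which says only that these letters are not in this window.

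Among the other 12 peroxin genes, 0 passed the limma threshold in either direction, and the only one with an unadjusted p under 0.05 was Pex19, which stood higher. The 13 together had a median log2 change of 0.16, and 9 were above 0. The membrane insertion factors had log2 differences above 0 that did not pass. The chaperone for new membrane proteins, Pex19, was at 82.5 ± 19.4 and 110 ± 17.3 CPM (log2 difference 0.43, 95% CI 0.02 to 0.83, adjusted p = 0.262). Its docking partner Pex3 was at 17.4 ± 2.41 and 19.5 ± 3.22 CPM (log2 difference 0.16, and 0.24 without LD_405, adjusted p = 0.682 and 0.466). Pex16, which recruits Pex3, was at 64.4 to 84.4 CPM on the standard diet, and at 161, 104, 75.4, 68.0 and 69.9 CPM on the Longevity diet from LD_405 to LD_515. Its log2 difference of 0.36 (adjusted p = 0.443) was 0.15 without LD_405.

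No gene of the import machinery passed. Pex5, the receptor for proteins with a C-terminal targeting signal, stood at 74.3 ± 15.1 and 76.5 ± 14.9 CPM (log2 difference 0.04, 95% CI -0.39 to 0.48, and 0.17 without LD_405). Pex7, the receptor for an N-terminal signal, stood at 60.4 ± 4.19 and 55.6 ± 13.8 CPM (log2 difference -0.16, 95% CI -0.58 to 0.26). Its lowest value was 35.5 CPM in LD_405, and without that mouse the difference was -0.0046. At the docking complex Pex13 was at 55.7 ± 5.54 and 52.1 ± 9.84 CPM and Pex14 at 57.5 ± 9.52 and 69.0 ± 6.57 CPM (log2 differences -0.12 and 0.27). Without LD_405 that of Pex13 turned to 0.02. The RING-finger ubiquitin ligases that prepare the receptor for recycling gave log2 differences of -0.17 for Pex2 and 0.30 for Pex10. For the ATPase that pulls the receptor back out, Pex6 was at 99.1 ± 27.7 and 97.96 ± 10.5 CPM (log2 difference 0.02, and -0.02 without LD_405), and its membrane anchor Pex26 was at 17.98 ± 8.59 and 22.2 ± 5.44 CPM. The widest of these intervals ran from -0.24 to 0.97 on the log2 scale, for Pex26.

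Pex11g, the relative of Pex11a that acts with it in division, was not called. Its standard diet values lay within 40.3 to 43.3 CPM, whereas LD_405 had 79.7 and LD_406 53.0 CPM, and LD_442, LD_513 and LD_515 had 30.1, 28.6 and 29.8 CPM. The Longevity diet mice thus fell on both sides of a narrow standard diet range. The log2 difference was -0.04 (adjusted p = 0.953), and its sign turned in 5 of 21 alternative settings, median-of-ratios scaling among them (0.07). Without LD_405 it was -0.28 (adjusted p = 0.451). The log2 ratio of Pex11a to Pex11g was 0.51 ± 0.37 on the standard diet and 1.84 ± 0.58 on the Longevity diet. That difference of 1.33 had an exact two-sided permutation p of 0.0159, or 0.0635 after adjustment over the 4 ratios compared, which did not pass. Without LD_405 the adjusted exact permutation p was 0.0317, with a difference of 1.55.

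**Figure D4:**
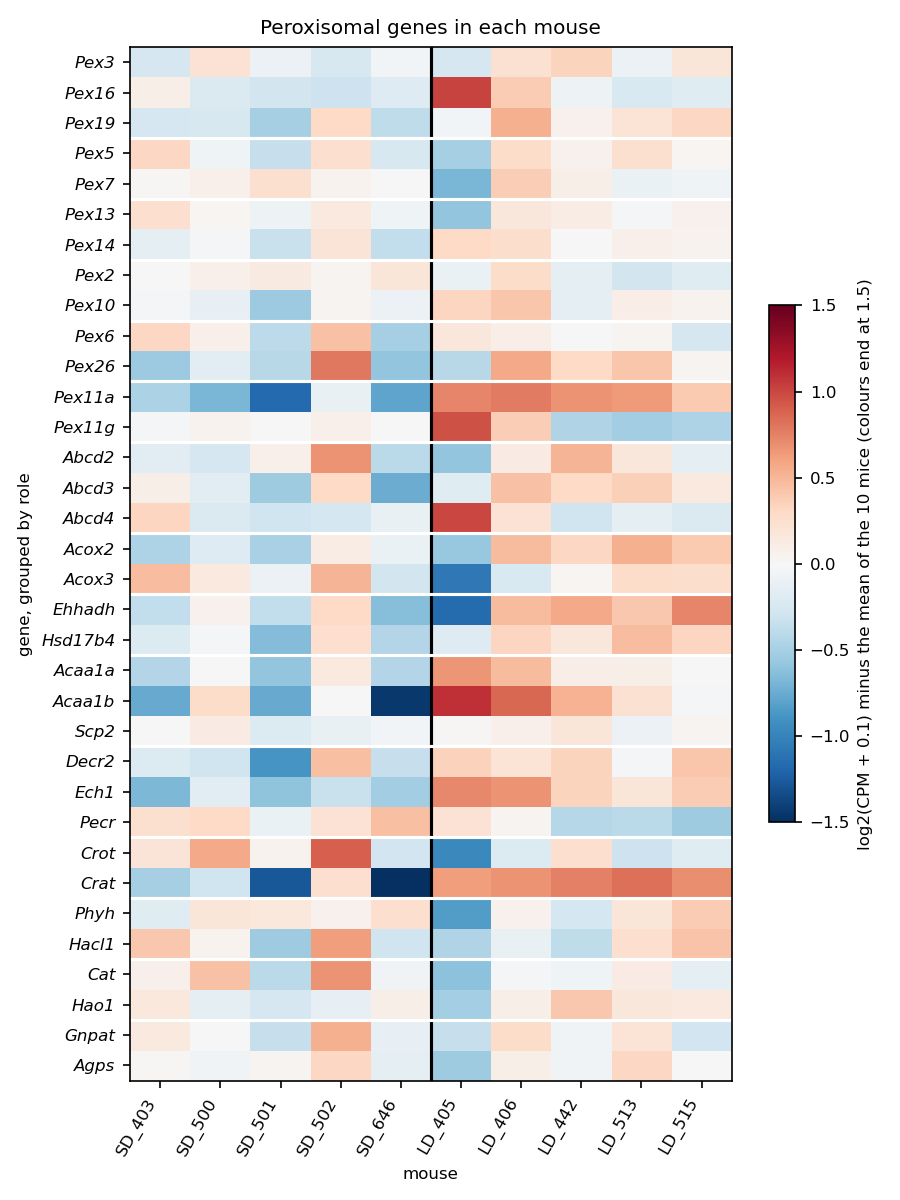
Log2 level of each gene (rows, grouped by role) in each mouse (columns, standard diet left of the black line) minus the mean of the 10 mice, with red above and blue below. Pex11a, Ech1 and Crat are red across the Longevity diet mice, and the LD_405 column holds 7 row maxima and 13 row minima.

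Transporters of the peroxisomal membrane bring in acyl-CoA. Abcd3, which carries branched, dicarboxylic and bile acid precursors, was at 307 ± 88.7 and 401 ± 63.1 CPM (log2 difference 0.42, 95% CI -0.04 to 0.88, adjusted p = 0.328). Abcd2, a carrier of very long-chain acyl-CoA, was at 103 ± 33.5 and 105 ± 28.4 CPM (log2 difference 0.03, adjusted p = 0.962, and 0.18 without LD_405). The log2 ratio of Abcd2 to Abcd3 was -1.58 ± 0.35 and -1.97 ± 0.25 (exact permutation p = 0.0635, adjusted p = 0.0847). Abcd4, a family member that works at the lysosome in cobalamin transport, was at 11.3 ± 2.17 and 13.9 ± 6.05 CPM. Its highest value was 24.3 CPM in LD_405, and its log2 difference went from 0.23 to 0.01 without that mouse.

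Acyl-CoA oxidases begin each round of peroxisomal beta-oxidation. Acox2, which acts on bile acid precursors and branched chains, stood at 108, 130, 106, 160 and 139 CPM on the standard diet and at 100, 206, 184, 214 and 196 CPM on the Longevity diet. Only LD_405 lay within or below the standard diet values. The log2 difference of 0.46 did not pass (adjusted p = 0.310), and without LD_405 it was 0.65 and passed (adjusted p = 0.0488). Acox3, a further branched-chain oxidase, was at 19.8 ± 4.61 and 16.6 ± 5.32 CPM (log2 difference -0.30, adjusted p = 0.600). Without LD_405, its lowest mouse at 8.22 CPM, the difference was -0.07.

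The multifunctional enzymes hydrate and dehydrogenate the chain. Ehhadh, the L-bifunctional enzyme of straight and dicarboxylic chains, had 247, 333, 248, 392 and 205 CPM on the standard diet and 144, 443, 474, 422 and 529 CPM on the Longevity diet. LD_405 was the lowest of all 10 mice, and the other 4 mice of its diet lay above every standard diet mouse. The log2 difference was 0.41 (95% CI -0.29 to 1.11, adjusted p = 0.538), and 0.75 without LD_405 (adjusted p = 0.0604), which did not pass either. Hsd17b4, the D-bifunctional enzyme, stood at 207 ± 51.0 and 275 ± 44.4 CPM (log2 difference 0.43, adjusted p = 0.286). The ratio of the 2 genes differed between diets by -0.02 on the log2 scale (exact permutation p = 0.960), and by 0.22 without LD_405 (adjusted exact permutation p = 0.167).

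Thiolases release acetyl-CoA at the end of the cycle. Acaa1b ranged from 309 to 1023 CPM on the standard diet and from 835 to 1804 CPM on the Longevity diet, with its highest value in LD_405. SD_500 and SD_502 reached into the lower Longevity diet values. The log2 difference of 1.08 (SE 0.31, 95% CI 0.41 to 1.75) was larger than that of Ech1 but did not pass (adjusted p = 0.1002). Acaa1a went from 239 ± 54.1 to 344 ± 70.2 CPM (log2 difference 0.53, adjusted p = 0.180), and reads of these close paralogs can be shared. Their log2 ratio was 1.31 ± 0.47 and 1.85 ± 0.21 (exact permutation p = 0.0397, adjusted p = 0.0794), so that an unequal response did not pass. Scp2, whose locus encodes both the thiolase of branched chains and a sterol carrier, was at 1114 ± 95.9 and 1187 ± 79.5 CPM, with the narrowest interval of the set (95% CI -0.20 to 0.39).

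Of the auxiliary enzymes beside Ech1, the dienoyl-CoA reductase Decr2 was at 171 ± 59.4 and 234 ± 27.3 CPM (log2 difference 0.51, adjusted p = 0.252). The enoyl-CoA reductase Pecr, which works toward chain elongation, lay in the other direction at 187 ± 25.2 and 140 ± 33.1 CPM (log2 difference -0.44, adjusted p = 0.245). Pecr passed as lower in 1 alternative, the fit with a weight per library (adjusted p = 0.0353). Acyl groups leave the peroxisome as carnitine esters, and the medium-chain transferase Crot stood opposite to Crat. It was at 394, 511, 359, 641 and 284 CPM on the standard diet and 177, 300, 412, 278 and 305 CPM on the Longevity diet. The Crot values of the diets overlapped (log2 difference -0.57, 95% CI -1.12 to -0.02, adjusted p = 0.270). The log2 ratio of Crat to Crot ran from -3.58 to -2.74 on the standard diet and from -1.59 to -0.51 on the Longevity diet. That ratio was chosen after its values were seen and was not tested.

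None of the 6 genes of alpha-oxidation, hydrogen peroxide and ether lipids passed. In alpha-oxidation, which removes 1 carbon from phytanic acid, Phyh was at 903 ± 100 and 819 ± 241 CPM and the lyase Hacl1 at 301 ± 99.01 and 276 ± 74.8 CPM (log2 differences -0.19 and -0.10, and -0.0053 and -0.0024 without LD_405). Catalase, Cat, was at 1415 ± 411 and 1131 ± 198 CPM (log2 difference -0.29, 95% CI -0.76 to 0.17, adjusted p = 0.507, and -0.18 without LD_405). Hao1, a hydrogen peroxide-forming glycolate oxidase, was at 122 ± 14.3 and 134 ± 28.5 CPM (log2 difference 0.11, adjusted p = 0.785, and 0.26 without LD_405). The ether lipid enzymes Gnpat and Agps had log2 differences of -0.08 and -0.07 (adjusted p = 0.863 and 0.886), which became -0.0081 and 0.05 without LD_405. Signs of Hacl1, Gnpat and Agps turned positive under median-of-ratios scaling, to 0.01, 0.03 and 0.04.

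Levels were compared between genes per kilobase of transcript. On the standard diet the most abundant were Phyh at 628 ± 69.7, Cat at 541 ± 157, Scp2 at 422 ± 36.3 and Acaa1b at 375 ± 171 CPM per kilobase, each within the summed spread of its neighbour. The highest peroxin, Pex16, stood at 50.7 ± 5.77 CPM per kilobase, and Agps (1.63 ± 0.20) and Pex10 (2.98 ± 0.44) were lowest. On the Longevity diet Acaa1b stood at the top with 754 ± 235, ahead of Phyh with 570 ± 167 CPM per kilobase, a difference within their spread. Ech1 moved from rank 5 to rank 3 at 475 ± 76.3 CPM per kilobase. That was within the spread of Scp2 at 450 ± 30.1 and Cat at 433 ± 75.9 on the same diet. Crat moved from rank 26 to rank 20 at 31.5 ± 1.74 CPM per kilobase, within the spread of Pex6 at 30.6 ± 3.28.

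Further genes of the organelle came from lists chosen for peroxisomal location or role. Of 57 measured, 4 rose and 0 fell, with a median log2 change of 0.03, beside 0.661% and 1.23% of all genes. At an unadjusted p under 0.05 there were 9 higher and 5 lower, beside 5.92% and 11.6%. Fatty acid activation and oxidation held 2 of the 4, among 19 genes with a median of 0.30. Eci2, an enoyl-CoA isomerase for unsaturated chains, was at 163 ± 41.2 CPM on the standard diet and rose to 342 ± 28.7 CPM (log2 1.10, adjusted p = 0.0114). Malonyl-CoA decarboxylase, Mlycd, was higher at 157 ± 30.3 CPM, from 88.5 ± 8.21 CPM on the standard diet (adjusted p = 0.0314). The other matrix enzymes and membrane proteins held the remaining 2, among 27 genes with a median of -0.07. Among them the retinal reductase Dhrs4 was at 80.9 ± 10.2 and 137 ± 22.0 CPM (adjusted p = 0.0361). The calls of Mlycd and Dhrs4 were lost in 9 and 13 of 21 alternative settings, and that of Eci2 in 2. In the lists of 3 further biogenesis genes and of 8 genes of division and tethering, 0 genes passed the limma threshold and 0 had an unadjusted p under 0.05 (medians -0.01 and -0.03). The fission GTPase Dnm1l and the deubiquitinase Usp30 had the smallest p of the latter, with log2 differences of -0.29 and 0.21 (adjusted p = 0.516 and 0.730). Over 21 settings these differences ran from -0.68 to -0.07 and from -0.19 to 0.39. Dnm1l was lowest in LD_405, at 12.9 CPM.

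Transcription regulators of these genes gave 0 calls among 14 by limma, beside 0.661% higher and 1.23% lower over all genes. At an unadjusted p under 0.05 there were 1 higher and 0 lower, beside 5.92% and 11.6% of all genes. Their median log2 change was 0.25, beside -0.11 for all genes. The smallest p values belonged to the nuclear receptors Esrra, at 19.8 ± 3.23 and 31.4 ± 11.8 CPM (log2 difference 0.60, adjusted p = 0.225), and Rxrb, at 25.7 ± 4.75 and 34.4 ± 7.10 CPM (adjusted p = 0.298). Ppara itself, named here because its product is the receptor described above, was at 45.9 ± 33.5 and 42.3 ± 23.8 CPM (adjusted p = 0.962). The interval of its log2 difference, -1.25 to 1.11, is wide enough to hold a change in either direction as large as that of Acaa1b. Ppara was lowest in LD_405, at 11.2 CPM, and over 21 settings its log2 difference ran from -0.48 to 0.34.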

How the data were processed

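Poly-A selected RNA of 10 mouse livers was sequenced, and samples were grouped by the diet in their titles. Per the submitters' processing notes STAR and Partek were used with mm39. Versions, the counter, the annotation release, the filter and the strand setting are not given in the sources used here. The deposited values are CPM with 0.0001 added by the authors, which was subtracted. Depth was estimated from the step between low values. Of the values under 100 reads 84.5% to 87.9% were within 0.1 of a whole read, under the 95% set for treating them as counts, so no count test was used. The floor of 3 reads covers counting error only.

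Values were analysed as log2(CPM + 0.1) where the mean over the 10 mice reached 1 CPM, with limma 3.58.1 (trend and robust, statmod 1.5.0, R 4.3.3), diet as the only term, two-sided, Benjamini-Hochberg adjusted over 13157 genes at 0.05. Fold changes are on the log2(CPM + 0.1) scale. The fit was tested on simulated data with independent noise for each gene and mouse. Those data held no depth difference and no length or GC shift, so the test does not cover these. "Rose", "fell" and "changed" are used of genes past the threshold, and every adjusted p of a gene is from limma. Ratios of 4 gene pairs were compared by exact permutation over 252 assignments of mice (smallest p 0.00794). Nothing states separate housing or preparation, and p-values measure the spread between these mice. Positions are the deposited ones, and each end is the deposited stop minus 1, an offset seen in all 15 mitochondrial genes compared with GENCODE M21. Transcript length and GC content are those of the longest principal transcript in GENCODE M21. Protein targeting signals were planned but not analysed here. The genes of the set and the lists were chosen with earlier results of these data known. Every gene of the set is named, and of the other lists those past the threshold or otherwise up to 2 with the smallest p. A few list genes are counted but not reported here by name. Alternatives were other pseudocounts, filters, scalings, variance models and leaving out each mouse. Added after seeing the data were leaving out LD_406 and LD_515, estimated depth as a covariate, and removal of length and GC slopes.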

Additional observations from a re-analysis of the deposited data

Results flagged for a closer look

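In 5 of 68 groups of 5 mice checked (34 genes on each diet), 1 mouse lay far from the other 4, where chance gives about 5%. In LD_405 Ehhadh was at 144 CPM against 422 to 529 CPM in the other Longevity diet mice, Acox2 at 100.4 against 184 to 214 CPM, and Pex13 at 35.2 against 52.2 to 59.8 CPM. The other 2 were on the standard diet. Pex16 was highest in SD_403 at 84.4 CPM against 64.4 to 69.4 CPM, and Pex10 lowest in SD_501 at 3.78 against 5.06 to 5.68 CPM. The part of transcript length and GC content in the LD_405 values was not tested gene by gene.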

How the results depend on the processing

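The count of genes of the set that rose was 3 and lay between 1 and 4 when 1 mouse was left out. It was 1 without SD_403 and 1 without LD_406, Pex11a being that gene in both. Over all genes 39 rose and 57 fell without SD_403, and 26 rose and 61 fell without LD_406, in place of 87 and 162. The count of the set was 0 by limma without LD_406 and LD_515 (5 higher and 0 lower at an unadjusted p under 0.05). In that setting 2 of 13249 genes rose, 15 fell and 1316 had an unadjusted p under 0.05. The count was also 0 with estimated depth as a covariate (7 higher and 2 lower at an unadjusted p under 0.05). There 0 of all 13157 genes passed and 1981 had an unadjusted p under 0.05. Depth differed between the diets, so depth and diet are hard to tell apart. A weight per library gave 4 genes higher, with Acox2 added, and 1 lower, Pecr, beside 329 higher and 476 lower over all genes. The median log2 change of the set, 0.14, was -0.0098 with depth as a covariate, while its distance above the median of all genes was 0.18 to 0.32 in every setting, that one included. Removing length and GC slopes left 3 genes higher, Pex11a, Ech1 and Crat. Across 21 settings the log2 change of Pex11a was 1.16 to 1.42, with 2 calls lost, that of Ech1 0.75 to 1.03, with 4 lost, and that of Crat 1.17 to 1.68, with 11 lost. Of the 34 genes 13 turned sign in at least 1 setting. With 1 mouse left out the ratio of Acaa1b to Acaa1a differed by 0.36 to 0.68 and that of Pex11a to Pex11g by 1.21 to 1.55, a range that also holds both other pseudocounts. The first passed without SD_500 and without LD_515, and the second without SD_500, without LD_405 and without LD_515 (adjusted exact permutation p = 0.0317 to 0.0476). No paired analysis was possible because no mouse number occurs on both diets.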

Other observations

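Some peroxisomal genes outside the set stood apart by diet without passing the threshold, and were picked after their values were seen. The polyamine oxidase Paox was at 40.3 to 68.5 CPM on the standard diet and 24.3 to 36.3 CPM on the Longevity diet (log2 difference -0.77, adjusted p = 0.0722). The glutathione transferase Gstk1 was at 92.6 to 141 and 65.0 to 90.3 CPM (log2 difference -0.63, adjusted p = 0.0838). Agxt, the aminotransferase that detoxifies the glyoxylate made by Hao1, was at 595 ± 124 and 315 ± 121 CPM (log2 difference -0.97, adjusted p = 0.0601), with overlapping values. In the other direction the coenzyme A hydrolase Nudt19 was at 31.8 to 52.5 and 54.0 to 99.7 CPM (adjusted p = 0.0718), and the epoxide hydrolase Ephx2 at 246 to 376 and 392 to 437 CPM (adjusted p = 0.152).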
